A study of Mus musculus with 4 samples.

Results

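The CCAAT/enhancer-binding protein (C/EBP) genes Cebpa, Cebpb, Cebpd, Cebpe and Cebpg are described here from a map of open chromatin in mouse colonic organoids, which are self-organising cultures of colonic epithelial cells. Members were taken by position in the deposited peak list: summits inside a C/EBP gene or within 1000 bp of it, and regions away from gene ends whose nearest protein-coding gene end within 100 kb belongs to a C/EBP gene. This gave 53 of the 113404 separate regions of the list. Of these, 9 regions held the 23 summits in or near a gene and 44 lay away from gene ends. Accessibility was measured by bulk ATAC-seq, an assay that uses the Tn5 transposase to tag open chromatin with sequencing adapters. There were 4 libraries from wild-type (WT) organoids, 1 in each of 4 groups. Organoids from mice with colitis were given 10 µM T-5224, which inhibits AP-1 transcription factors, or 0.1% DMSO as vehicle, and organoids from control mice were given the same. Every treatment lasted 24 h, in medium with EGF, Noggin, R-spondin and Wnt, and all cells were frozen alive and thawed before their nuclei were taken. The labels put all 4 libraries in 1 batch, and the library names give both colitis libraries the same code and both control libraries another, without saying what the codes mean.

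The deposited values are those of a single peak list, and no value belongs to a given library. Neither colitis with control nor T-5224 with DMSO was compared, and no p-value is given. The sources used here do not say which libraries went into the peak call. The level quoted throughout is the authors' fold enrichment at a summit, a linear ratio of the pileup to the expected background with 1 added to each, where the expected background pileup was 7.63 everywhere. Intervals in brackets are exact Poisson 95% intervals of that pileup, and they cover counting error only. The lowest called pileup was 17, so a place without a summit may still hold signal below that. For the labelled cell type, 7 of 7 epithelial marker genes had a summit within 1000 bp of an outer gene end, with a median of 40.6-fold, against 3 of 7 leukocyte markers and 1 of 6 stromal markers, where the medians were 0. The leukocyte markers with a summit were Spi1 (25.7-fold), Itgam (4.99-fold) and Csf1r (3.48-fold), and Ptprc, Cd3e, Cd79a and Csf3r had none. The share of protein-coding genes with a summit at an end was 64.3%. Counting summits anywhere in the gene as well, the numbers were 7 epithelial, 3 leukocyte and 5 stromal markers, against 74.5% of protein-coding genes. The stromal median was then 6.55-fold and the leukocyte median still 0. Regions away from gene ends were assigned to all 7 epithelial, 6 leukocyte and all 6 stromal markers, against 68.5% of protein-coding genes. The part of other cell types in the C/EBP values was not tested.

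C/EBP proteins are basic leucine zipper (bZIP) transcription factors that bind DNA as dimers, with one another or with other bZIP proteins such as ATF4 and CHOP. C/EBPα promotes terminal differentiation and leaving the cell cycle, in fat, liver and the myeloid lineage among others. C/EBPβ and C/EBPδ are induced by inflammatory cytokines and drive acute phase genes, C/EBPε acts in late granulocyte maturation, and C/EBPγ lacks a strong activation domain and works largely through its dimer partners.

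RefSeq promoter windows on GRCm38.p6, from 250 bases before the annotated start site to 50 after it, were found for 3 of the 5 genes, Cebpa, Cebpb and Cebpg. Those windows are printed because the strongest summit of each of these genes lay within 90 bp of the start site. They are read 5′ to 3′ along the gene, and capitals mark every match to a searched motif on either strand. Cebpa is at chr7:35119043-35119342 on the plus strand, Cebpb at chr2:167688665-167688964 on the plus strand and Cebpg at chr7:35056517-35056816 on the minus strand.
Cebpa: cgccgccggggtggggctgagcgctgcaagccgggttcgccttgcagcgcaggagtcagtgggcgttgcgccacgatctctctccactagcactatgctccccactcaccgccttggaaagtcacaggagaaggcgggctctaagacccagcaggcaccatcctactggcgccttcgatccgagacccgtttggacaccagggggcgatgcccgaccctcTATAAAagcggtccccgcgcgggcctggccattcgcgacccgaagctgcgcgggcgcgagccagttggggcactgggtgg
Cebpb: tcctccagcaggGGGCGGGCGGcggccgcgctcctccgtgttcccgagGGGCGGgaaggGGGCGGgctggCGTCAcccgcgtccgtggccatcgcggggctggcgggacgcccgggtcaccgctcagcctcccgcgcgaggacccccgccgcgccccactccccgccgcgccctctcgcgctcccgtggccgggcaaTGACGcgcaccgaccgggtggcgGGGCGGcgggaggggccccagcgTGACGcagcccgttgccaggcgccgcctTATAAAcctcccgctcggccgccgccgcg
Cebpg: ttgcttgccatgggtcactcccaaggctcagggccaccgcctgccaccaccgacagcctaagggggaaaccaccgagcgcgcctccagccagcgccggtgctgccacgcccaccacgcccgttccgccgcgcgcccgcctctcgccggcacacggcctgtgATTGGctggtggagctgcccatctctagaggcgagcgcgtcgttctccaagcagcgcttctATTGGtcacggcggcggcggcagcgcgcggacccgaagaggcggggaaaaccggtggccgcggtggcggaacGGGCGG
All 3 windows were rich in G and C. The share of G and C was 80.7% at Cebpb, 71.7% at Cebpg and 67.3% at Cebpa, against a median of 56.7% over the 21045 windows of protein-coding genes. Cebpb held 50 CpG dinucleotides, at the 99.0th percentile, Cebpg 38 and Cebpa 29, and the median window held 13. The GC box GGGCGG, a binding site of Sp1-type factors, matched at 5 places in Cebpb, the first pair of which overlap, at 1 place in Cebpg and at none in Cebpa. It was present in 46.7% of all windows.

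Neither the AP-1 site TGANTCA (7.04% of all windows) nor the C/EBP site TTGCNNAA (10.3%) was found in any of the 3 windows. The same held for the full cyclic AMP response element TGACGTCA (2.26%), the C/EBP-ATF composite site TGATGCAA (0.851%) and the STAT site TTCNNNGAA (7.76%). A search for shorter elements was added after the letters had been seen. The half-site TGACG of the cyclic AMP response element, present in 23.8% of windows, matched at 3 places in Cebpb, beginning 180, 53 and 7 bases before the annotated start. The TATA box TATAAA, present in 12.7% of windows, began 30 bases before the start in Cebpa and 21 bases past it in Cebpb. The CCAAT box, the element from which the family took its name, was present in 38.5% of windows. It matched at 2 places in Cebpg, as ATTGG on the strand printed, and in neither of the other two. These matches describe letters only, and the absence of a match says nothing about binding elsewhere.

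At an outer gene end, meaning within 1000 bp of it, Cebpa, Cebpb, Cebpd and Cebpg had a summit and Cebpe had none, which makes 4 of the 5 C/EBP genes. Over all protein-coding genes, 64.3% had such a summit. The same 4 genes had a fold above 20 there, which 39.7% of protein-coding genes reached. The highest value was 51.9-fold at Cebpg (47.2 to 57.0), followed by 42.0-fold at Cebpa (37.8 to 46.5), 39.3-fold at Cebpd (35.2 to 43.7) and 22.4-fold at Cebpb (19.3 to 25.8). The median of the 5 genes was 39.3-fold, with Cebpe counted as 0, and that of all protein-coding genes was 9.62-fold. In this order Cebpg was 1.24 times Cebpa in pileup (exact conditional interval 1.08 to 1.43), and Cebpa was 1.07 times Cebpd (0.918 to 1.24). Cebpa and Cebpd are thus not told apart by counting error. Cebpd was 1.76 times Cebpb (1.47 to 2.11), so Cebpb was the lowest of the 4 by more than its counting error.

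**Figure D1:**
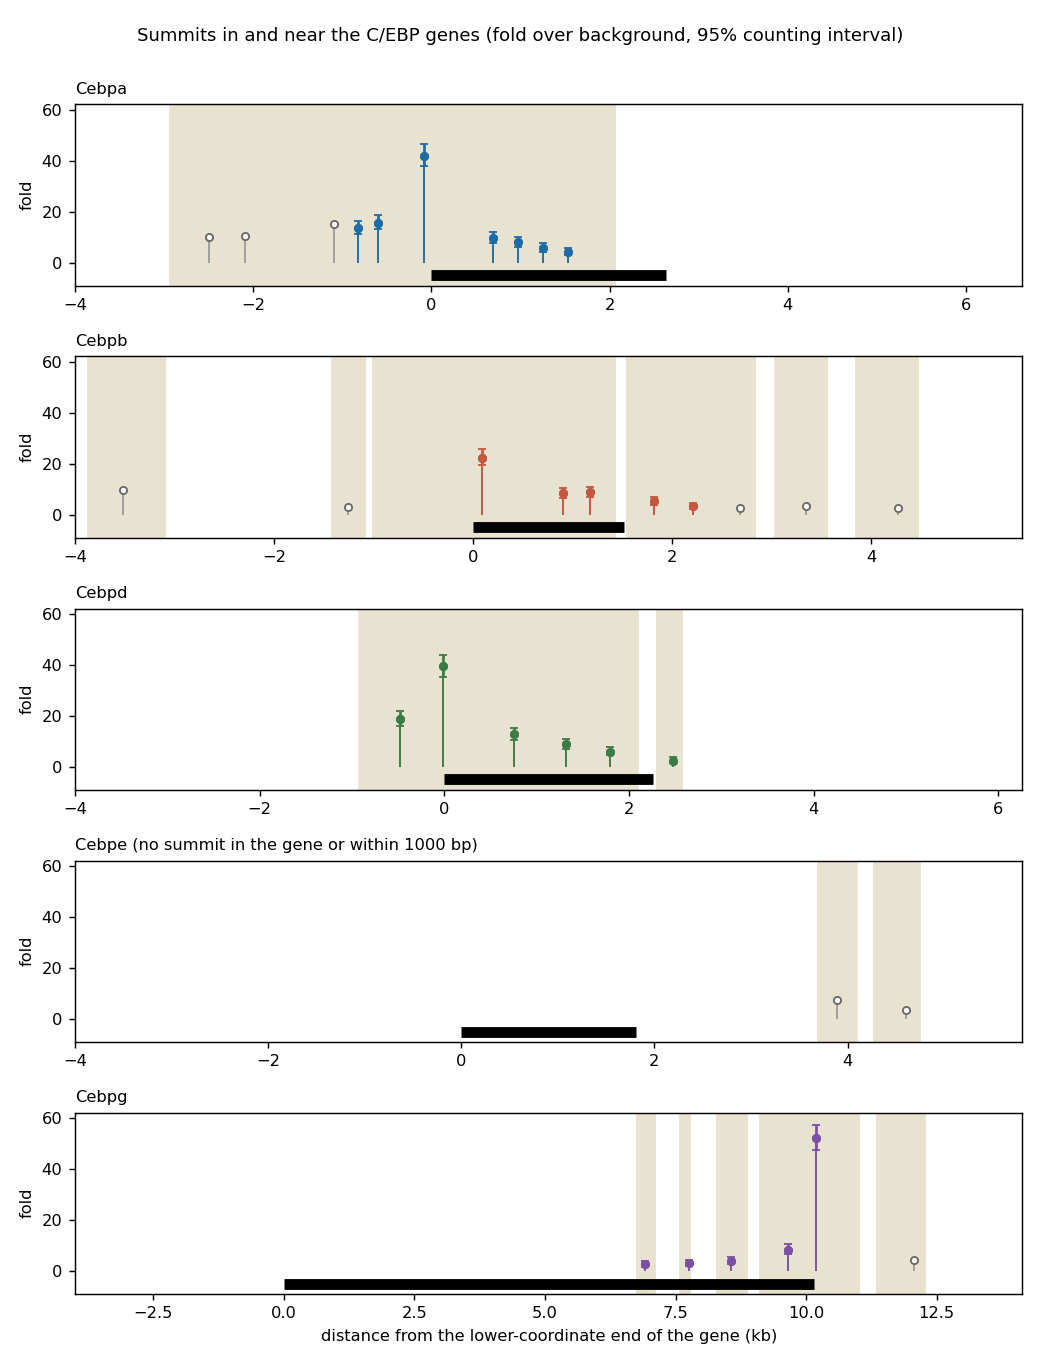
Summits in and near each C/EBP gene, by distance in kb from the lower-coordinate end of the gene (x) and fold over background (y). Filled points are summits in the gene or within 1000 bp with 95% counting intervals, open points are other summits of the same regions or strongest summits of other regions, shaded bands are called regions and the black bar is the gene. Cebpa, Cebpb, Cebpd and Cebpg each show 1 dominant summit at an end, between 22.4 and 51.9-fold, and Cebpe shows no called region over the gene.

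Cebpa (NCBI Gene 12606, chromosome 7, 35119293 to 35121928) lay in the widest region at any of the 5 genes. That region, 35116357 to 35121353, was 4997 bp wide and held 10 summits, which put it at the 99.7th percentile of all regions by width and the 99.8th by number of summits. Its strongest summit, 42.0-fold, lay 84 bp before the annotated start, within the window printed above. On the far side from the gene, 5 further summits stretched to 2495 bp before the start. Those values were 10.2, 10.3, 15.2, 13.6 and 15.7-fold in order of position, so none came near the summit at the start. Inside the gene the 4 summits were lower with distance from the start, at 9.62, 8.0, 5.80 and 4.29-fold. The region ended before the other end of the gene, and no summit was called within 1000 bp of that end.

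Cebpd (NCBI Gene 12609, chromosome 16, 15887286 to 15889545) had a similar layout on a smaller scale. A region of 3013 bp, 15886366 to 15889378, held 5 summits and stood at the 98.5th percentile by width. The strongest, 39.3-fold, lay 19 bp outside the lower-coordinate end. A summit of 18.7-fold (15.9 to 21.8) lay 477 bp outside the same end, and those inside the gene were 12.6, 8.81 and 5.91-fold with growing distance from it. A separate region of 267 bp just past the other end reached 2.43-fold (1.53 to 3.70), near the lowest fold in the list, 2.09. That end overlaps the gene Spidr by 322 bp, so the small region lies inside Spidr.

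Cebpb (NCBI Gene 12608, chromosome 2, 167688915 to 167690432), the shortest of the 5 genes at 1518 bp, was covered nearly end to end. A region of 2441 bp, 167687903 to 167690343, held 3 summits. The strongest, 22.4-fold, lay 90 bp past the annotated start, just beyond the printed window, and the other two were 8.46-fold (6.65 to 10.6) and 8.70-fold (6.85 to 10.9) inside the gene, with intervals that overlap. Past the other end, a region of 1287 bp at an end of the noncoding gene A530013C23Rik had summits of 5.33, 3.25 and 2.43-fold, of which the last lay over 1000 bp from Cebpb.

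Cebpg (NCBI Gene 12611, chromosome 7, 35046422 to 35056566) had the strongest summit of the 4, in the narrowest of their main regions. A region of 1884 bp, 35055547 to 35057430, held the 51.9-fold summit, 46 bp before the annotated start, and a summit of 8.23-fold (6.44 to 10.4) inside the gene. This end of Cebpg overlaps the predicted protein-coding gene Gm45095 by 1084 bp, so the region covers parts of both genes. Within the gene, 3 small regions of 200 to 573 bp reached 2.55, 3.01 and 3.94-fold, all of them in the part nearest to the start. No summit lay within 1000 bp of the other end, beside Pepd.

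Cebpe (NCBI Gene 110794, chromosome 14, 54710363 to 54712174), the granulocyte member, had no summit in the gene or within 1000 bp of it, where 74.5% of protein-coding genes had one. It is a short gene, of 1812 bp, and that share is not matched for length. Its 0 at an outer end stood at the 17.8th percentile of all protein-coding genes and the 30.3rd of those under 5 kb, ties split. Lacking a summit at an end is thus more common among short genes. The nearest regions were 2083 and 2792 bp past its higher-coordinate end, with 7.42-fold (5.73 to 9.46) and 3.25-fold (2.18 to 4.67). The strongest region within 100 kb of Cebpe, 64.5-fold (59.2 to 70.0), lay 23.6 kb away at an end of Acin1. Open regions were therefore called around Cebpe, and none over the gene itself.

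**Figure D2:**
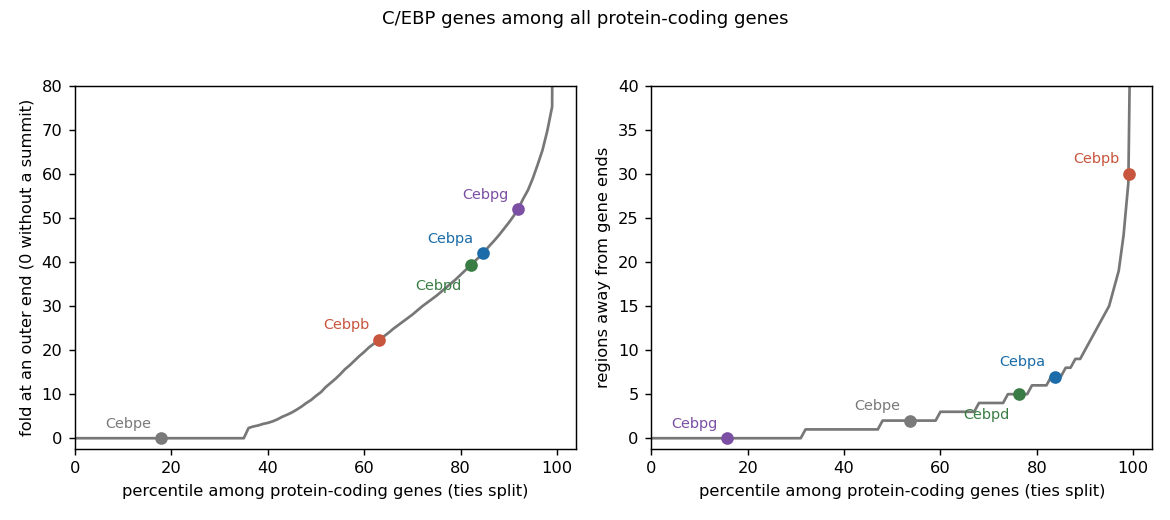
The 5 C/EBP genes among all 21631 protein-coding genes, by percentile (x, ties split) and fold at an outer end (left, y) or number of regions away from gene ends (right, y); the grey line is all genes. Cebpg is highest by fold, at the 91.9th percentile, and has 0 regions away from gene ends, whereas Cebpb is lowest by fold of the 4 genes with a summit and at the 99.1st percentile by regions.

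The order of the members changed when regions away from gene ends were counted. A region was away if its strongest summit was over 1000 bp from the end of any annotated gene. Cebpb had 30 such regions, Cebpa 7, Cebpd 5, Cebpe 2 and Cebpg 0. Over all protein-coding genes, 68.5% had 1 or more, and the median gene had 2. Of the 21631 genes, 206 had as many as Cebpb or more, and of the 4850 genes under 5 kb 3 did, Cebpb included in both counts. The median fold of the regions assigned to C/EBP genes was 3.88, against 4.52 for all 81279 assigned regions, and 7 of 44 exceeded 10-fold, against 21.2%.

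The 30 regions of Cebpb were many and weak. Their folds ran from 2.09 to 16.0 with a median of 3.42, 21 were under 5-fold and 2 exceeded 10-fold. On the side of Tmem189, whose nearest end is 27.4 kb away, there were 6, and 5 of these lay within 10 kb of Cebpb, with 9.62, 4.29, 8.12, 9.62 and 2.90-fold. On the other side the nearest protein-coding gene, Ptpn1, begins 240.3 kb away, and the remaining 24 regions lay there. Of the 30, 8 lay within 10 kb of the gene, 6 between 10 and 50 kb and 16 between 50 and 100 kb. The strongest were at 167759921 to 167760462 (16.0-fold, 13.5 to 18.9, 69.7 kb from the gene) and at 167727042 to 167727684 (13.3-fold, 11.0 to 16.0, 36.9 kb), followed by a tie between 167679897 to 167680362 (8.8 kb) and 167685044 to 167685815 (3.5 kb), both 9.62-fold (7.68 to 11.9). All 4 were below the 22.4-fold at the gene itself. Noncoding genes held 13 of the 30, among them A530013C23Rik, Gm38464, Gm32287 and Gm14321. With regions under 100 kb counted whatever their nearest gene, Cebpb had 54, at the 97.5th percentile. When only regions within 50 kb were assigned Cebpb had 14, and when noncoding genes also competed for regions it had 5.

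**Figure D3:**
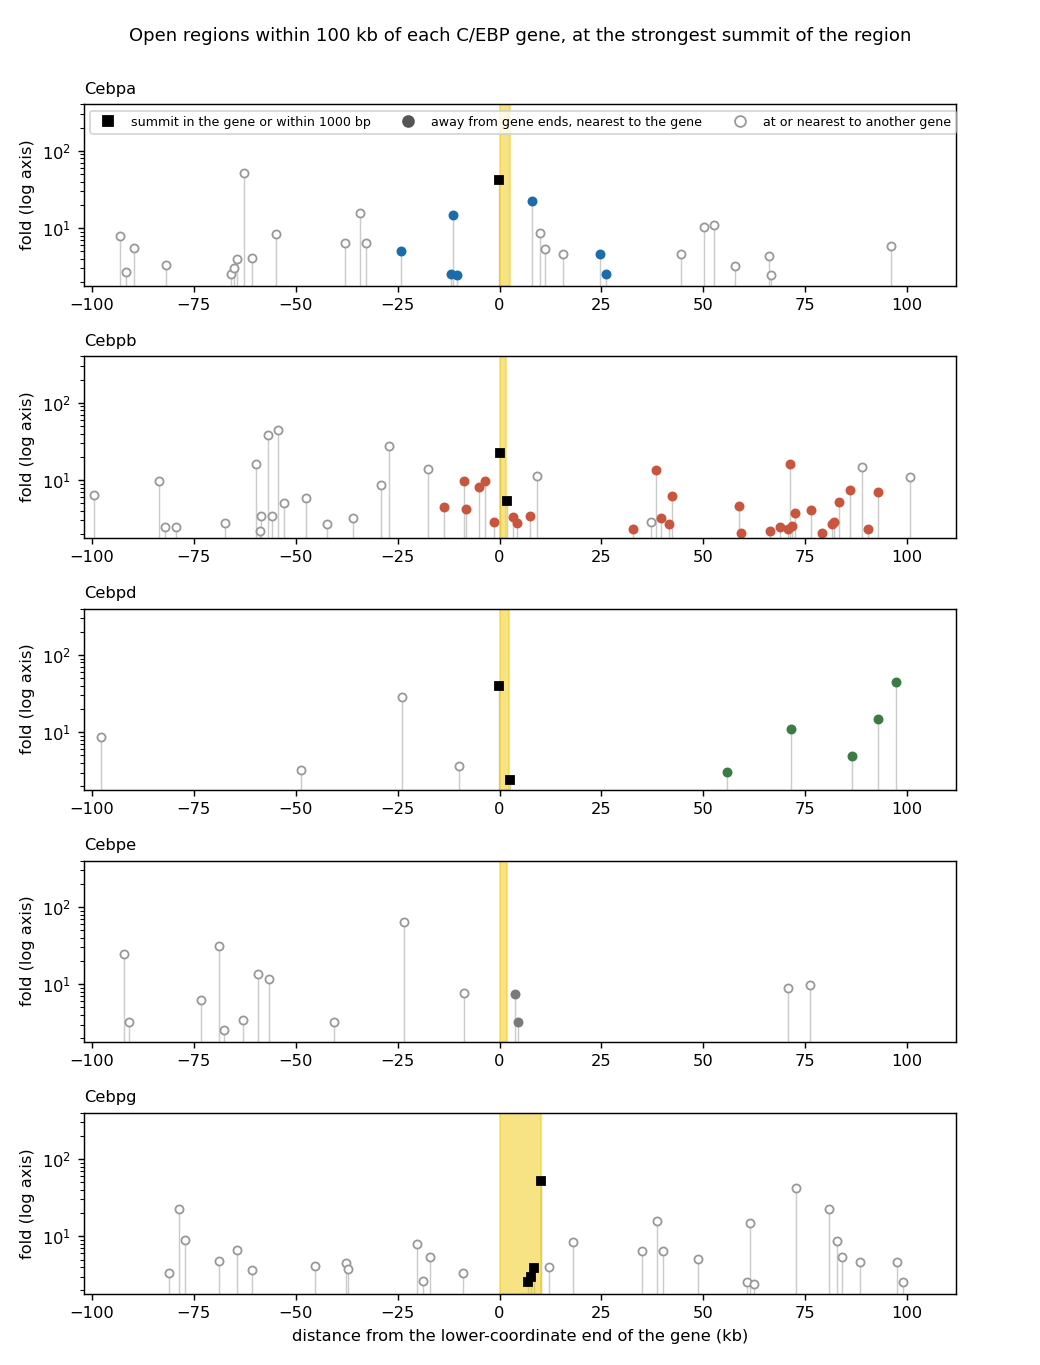
Regions within 100 kb of each C/EBP gene, by distance in kb from its lower-coordinate end (x) and fold at the strongest summit (y, log axis). Black squares are regions with a summit in the gene or within 1000 bp, filled circles are regions away from gene ends nearest to the gene, open circles are regions at or nearest to another gene, and the yellow band is the gene. Cebpb has 30 filled circles and Cebpg none, and the 5 of Cebpd all lie over 50 kb away on 1 side.

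Cebpa had 7 regions, 4 on the side of Cebpg and 3 on the side of Slc7a10. The strongest, at 35126807 to 35128436, reached 22.4-fold (19.3 to 25.8) in 1630 bp with 2 summits, 5.3 kb past the gene. The next was at 35107446 to 35108438, with 14.8-fold (12.4 to 17.6), 11.5 kb before the start. Smaller regions of 2.55 and 2.43-fold stood on either side of it, and the third strongest of the 7, at 35095037 to 35095501 in the noncoding gene Gm35611, had 5.10-fold. When noncoding genes also competed for regions, Cebpa had 1.

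All 5 regions of Cebpd lay inside Spidr, a gene of 257628 bp, and were counted for Cebpd because its end is slightly nearer to them than the end of Spidr. They lay 53.5 to 95 kb from Cebpd. The farthest, at 15983826 to 15985732, was also the strongest region away from gene ends of the whole family, with 44.4-fold (40.1 to 49.1), and its interval overlaps that of the summit at Cebpd itself. It ranked at the 98.9th percentile of all assigned regions. The next in strength were 14.7-fold (12.3 to 17.5) at 15979729 to 15980656 and 11.0-fold (8.92 to 13.5) at 15958479 to 15959192. With regions inside another protein-coding gene left to that gene, Cebpd had 0, as it had when the limit was 50 kb. On the side of Mzt2, the 23.9 kb between the genes held 1 region over 1000 bp from both, with 3.59-fold, near an end of the noncoding gene Gm41425.

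The limits of the rule fell close to some summits. At the 1000 bp limit, a Cebpa summit of 13.6-fold lay inside at 825 bp and one of 15.2-fold outside at 1095 bp, and at Cebpb one of 3.25-fold lay inside at 695 bp and one of 2.43-fold outside at 1162 bp. At the 100 kb limit, the 44.4-fold region of Cebpd lay inside at 95 kb and one of 6.14-fold outside at 101.3 kb, while at Cebpb a region of 6.96-fold lay inside at 91.3 kb and one of 8.58-fold outside at 109.8 kb.

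Cebpg and Cebpa are neighbours, 62.7 kb apart, and their strongest summits were 62.6 kb apart. Over 1000 bp from both, 9 regions lay between them, with folds from 2.43 to 15.9. Of these, 5 were nearest to Gm45095 and 4 to Cebpa. The 0 of Cebpg rests on Gm45095: without that gene as a competitor Cebpg had 7 regions away from gene ends. Of these, 3 were the small regions inside Cebpg already described and 4 lay between Cebpg and Cebpa, with 4.06 to 15.9-fold. Within 100 kb, whatever the nearest gene, there were 33 regions around Cebpg and 31 around Cebpa, of which many are the same, against 15 around Cebpe and 11 around Cebpd.

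The family was set beside related bZIP genes, as values from the same list. The 4 Fos family genes all had such a summit. Their median was 49.7-fold, led by Fos (55.4-fold) and Fosl2 (50.8-fold). The 3 Jun family genes had a median of 59.9-fold, with Jun at 76.2-fold and Junb at 59.9-fold. Among the 19 ATF and CREB-like genes 17 had one and the median was 49.0-fold. Creb3l2, an endoplasmic reticulum stress factor, had 80.2-fold and Atf3 had 72.5-fold, and Creb3l4 and Batf had none at an end. Inside the gene, the strongest summits of Creb3l4 and Batf were 11.0 and 15.3-fold. The group of the PAR-type genes Dbp, Hlf and Tef with the related repressor gene Nfil3 had a median of 23.1-fold, led by Dbp (49.7-fold) and Nfil3 (27.1-fold). The C/EBP median of 39.3-fold lay below those of the Fos, Jun and ATF groups and above that of the PAR and related group, with ranges that overlap. With the strongest summit anywhere in or near the gene, the last order turned, with 39.3-fold for C/EBP genes and 39.7-fold for the PAR and related group. No test of these differences was made, since genes are not replicates.

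**Figure D4:**
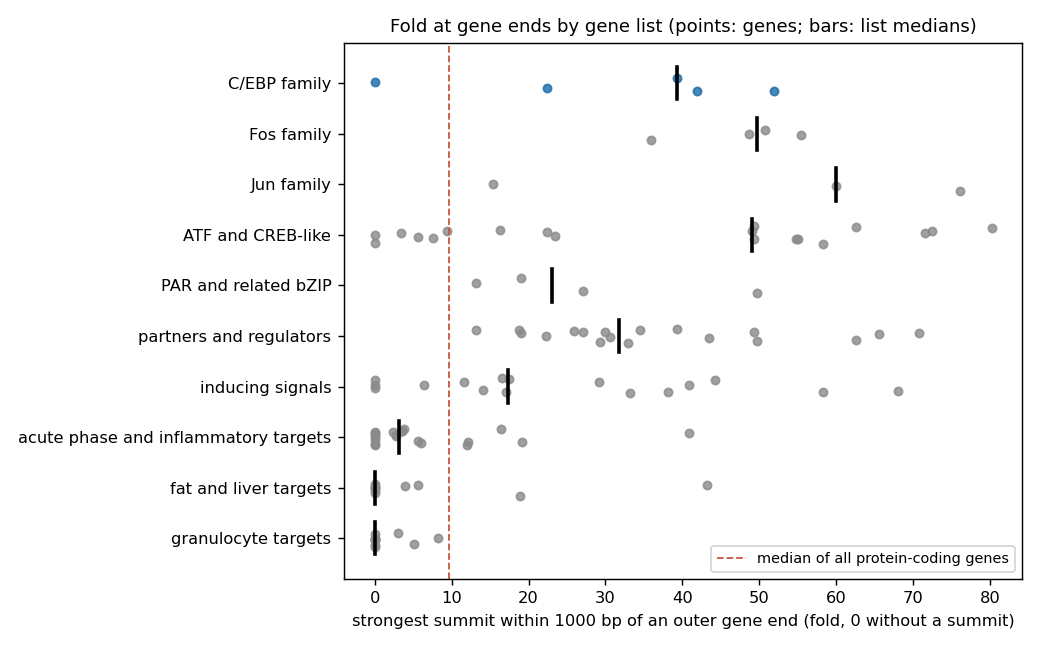
Strongest fold within 1000 bp of an outer gene end (x, 0 without a summit) for each gene of the C/EBP family, 4 related bZIP groups and 5 C/EBP pathway lists (y). Points are genes, black bars are list medians and the dashed line is the median of all protein-coding genes, 9.62. Partners and regulators all lie above 0, whereas most granulocyte and fat and liver targets lie at 0.

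Genes of the C/EBP pathway were read in 5 lists by role, beside the 64.3% of protein-coding genes with a summit at an end and their median of 9.62-fold. Of 18 dimer partners and regulators, 18 had such a summit, and the list median was 31.8-fold. Trib1, a pseudokinase that targets C/EBPα for degradation, had 70.8-fold (65.3 to 76.7), and Ddit3, which encodes the dimer partner CHOP, had 65.6-fold (60.3 to 71.3). Both were above every C/EBP gene. The list shares Atf4, Atf5, Nfil3, Dbp, Hlf and Tef with the bZIP groups above. Of 16 genes of signals that induce C/EBP genes, 13 had a summit there, and the list median was 17.3-fold. Stat3, the transducer of IL-6-type cytokines, had 68.1-fold (62.7 to 73.8) and Creb1, the cyclic AMP response factor, had 58.3-fold (53.3 to 63.6). Creb1 is shared with the ATF and CREB-like group above. Lifr, Il1r1 and Nr3c1 had none at an end, and their strongest summits in the gene were 10.2, 25.3 and 36.3-fold.

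The target lists were lower. None of the lists was matched by gene length to the share over all genes. Lacking a summit at an end is more common among genes under 5 kb. There a fold of 0 stood at the 30.3rd percentile, against the 17.8th over all protein-coding genes, ties split. The part of gene length in the list counts was not tested. Of 20 acute phase and inflammatory targets, 13 had a summit at an end, or 65%, close to the background share, and the median was 3.13-fold. Il1rn, the interleukin-1 receptor antagonist gene, had 40.9-fold (36.8 to 45.4) and Nfkbiz, an atypical NF-κB regulator, 19.1-fold at an end and 62.4-fold in the gene. Among the 7 without one were Saa2 and Hp, which encode acute phase proteins and had no summit in the gene either. With only summits at a −log10 q of at least 10, the count of 13 was 7 of 20, where 58.7% of protein-coding genes had such a summit. Of 10 fat and liver targets 4 had a summit at an end, led by Pck1 (43.2-fold), which encodes a gluconeogenic enzyme, and the adipocyte regulator Pparg (18.9-fold). Among the 6 without were Fabp4 and Adipoq, which had none in the gene. Of 10 granulocyte targets, genes of the lineage in which C/EBPε acts, 3 had a summit, of which Prtn3 (8.23-fold) and Ctsg (5.10-fold) were the strongest. Among the 7 without were Csf3r and Elane, and the medians of both lists were 0. Csf3r is also one of the leukocyte markers above.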

How the data were processed

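Bulk ATAC-seq was available for 4 libraries of mouse colonic organoids, 1 per group, as 1 deposited peak list. The submitters' processing notes name Bowtie2, MACS2 and mm10 and give no version, step or threshold. The deposited fold is a linear ratio from the authors' peak caller. The authors' −log10 p began at 3.02 and their −log10 q at 1.51. The deposited score is a rescaled −log10 q. All fold values (100%, tolerance 0.01) were whole multiples of 1 constant, and Poisson p-values with a background of 7.63 matched the deposited −log10 p to within 8.4e-06 where it was below 100. Each fold is thus the pileup plus 1, divided by 8.63 at every place. Copy number and mappability were not divided out, and repeat counts from 1 molecule would make intervals too narrow. The depth of each library is unknown.

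Gene bounds, without strand or exons, and promoter sequences came from RefSeq on GRCm38.p6, which shares coordinates with mm10 (21631 protein-coding genes). Motifs were searched only in promoters, since a genome sequence was not used here. Computation used Python 3.11.15, pandas 2.3.3, numpy 2.4.6 and scipy 1.17.1, and was tested on simulated data. Members and lists were chosen with earlier results of these data known. Named genes were all members, their 3 strongest regions, and of each other list the 2 strongest at an end and those without a summit (the first 2 if over 5). Without values per sample, no gene of like pattern across samples could be named.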

Additional observations from a re-analysis of the deposited data

How the results depend on the processing

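No paired analysis was possible because no value belongs to a single library and each group held 1. The strongest fold at an end was the same for all 5 genes with windows of 500 and 2000 bp. The 500 bp window could not change it, since the strongest summits lay 19 to 90 bp from an end. For Cebpe neither window could, as its nearest summit was 2083 bp away. Summits in or near Cebpb were 8 with 2000 bp, and those of Cebpg were 2 with a −log10 q of at least 10. Counts of regions away from gene ends depended most on the settings. With −log10 q of at least 10, Cebpa had 4, Cebpb 13, Cebpe 1 and the family 22. Within 50 kb, Cebpb had 14, Cebpd 0 and the family 23, and within 25 kb these were 9, 0 and 18. When all annotated genes competed, Cebpa had 1, Cebpb 5, Cebpd 2 and the family 10. Counting each summit gave Cebpa 12, and joining regions within 500 bp gave Cebpb 19 and Cebpe 1. Alternatives chosen after the data were seen gave Cebpd 0, with regions inside another protein-coding gene left to it, and Cebpg 7 without Gm45095. Among genes under 5 kb, percentiles of fold were 91.4 for Cebpa, 79.6 for Cebpb, 90.1 for Cebpd and 30.3 for Cebpe, and those of regions 96.6, 99.9, 94.3 and 83.4. Over all protein-coding genes they were lower, at 84.6, 63.0, 82.2 and 17.8 by fold and 83.8, 99.1, 76.3 and 53.7 by regions. Acute phase targets with a summit were 7 with the stricter −log10 q. With 500 bp, fat and liver targets were 2 and granulocyte targets 1, and with 2000 bp granulocyte targets were 5. These changes follow from fewer or more summits, distances or genes being admitted. A fold near 2 rests on a pileup of about 17, with an interval of 9.90 to 27.2.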

Other observations

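Some listed genes had many regions away from gene ends, a measure that the bZIP groups and pathway lists above did not use. Pparg, the adipocyte regulator that also acts in colonic epithelium, had 35, more than any C/EBP gene. Trib1 and Nfkbiz had 23 each, and Nr3c1, the glucocorticoid receptor gene without a summit at an end, had 21. High counts were not particular to the pathway lists: the epithelial markers Cdh1 and Epcam had 32 and 28, Jun 23 and Fosl2 22. In contrast Atf4, with 62.6-fold at an end, had 0. Ptges, which encodes a prostaglandin E synthase and had no summit at an end, reached 48.3-fold (43.8 to 53.2) in the gene and had 11 such regions. Over all protein-coding genes the median was 2 regions, 68.5% had 1 or more, and 29 marked the 99th percentile. Regions inside a gene are included, and gene length was not taken into account. The genes named here were chosen after their values were seen.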
